A study of Mus musculus with 8 samples.

Results

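Bulge stem cells of the mouse hair follicle were compared with their dividing progeny in the hair bulb, known as transit-amplifying cells (TACs), in control libraries of a study of the bone morphogenetic protein (BMP) receptor gene Bmpr1a. The comparison used 2 of the 8 libraries of the series, chosen by their labels. The first was the control of hair follicle stem cells (HFSCs) from K15-CrePGR mice, whose Cre recombinase is named for the promoter of keratin 15. The second was the control of TACs from Shh-CreER mice, whose Cre is named for the sonic hedgehog gene. Both were taken on postnatal day 68 from mice of mixed strain and both are labelled Het for Bmpr1a, so neither is a library labelled wild type. The labels give neither how the cells were isolated nor how many animals entered a library. TAC libraries of K15-CrePGR mice labelled WT, samples 52 and 57 of postnatal day 80, are given beside these where a second view of TACs is useful.

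Hair follicles renew from stem cells that rest in the bulge, a niche along the outer root sheath that stays in place when the rest of the follicle regresses. During growth, TACs of the hair matrix at the base of the follicle surround the dermal papilla, divide rapidly and give rise to the hair shaft and the inner root sheath. BMP signals are known to hold bulge cells at rest and to be needed for shaft differentiation in the matrix, while Wnt, hedgehog and FGF signals take part in the start and upkeep of growth.

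Expression is given in FPKM (sequenced fragments, scaled to the length of the transcript and the size of the library), and each pair of values below has the HFSC library first and the TAC library second. Differences are of log2(FPKM + 1), HFSC minus TAC, which understates the change of low genes. Of 22431 gene symbols, 12624 averaged 1 FPKM or more over both libraries. Of these, 1122 (8.89%) were at least 4-fold higher in HFSCs and 1026 (8.13%) at least 4-fold higher in TACs, and 4501 differed by less than 1.5-fold. At 2-fold the shares were 18.2% and 26.4%. There was 1 library on each side and the tables were normalized separately, so no test was run, no difference has a replicate check, and only large differences and ranks are described. The median gene differed by -0.31. When both libraries were scaled to the same sum the median was -0.59 and TAC-high genes made up 58.6% of the 4-fold genes, against 47.8% here and 39.0% when scaled to the same median. In these bulk samples, fewer cells of a type and less RNA per cell cannot be told apart.

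The markers of both cell types followed the labels. Krt15, a keratin of bulge cells, stood at 7834 and 86.4 FPKM, percentile 99.97 of the HFSC library and percentile 90.7 of the TAC library. Cd34, a surface marker of bulge stem cells, stood at 556 and 22.1 FPKM. Shh, the hedgehog ligand of the matrix, stood at 0.042 and 111 FPKM, percentiles 1.36 and 93.2. The transcription factor genes Lef1, at 0.813 and 87.0 FPKM, and Msx2, at 6.83 and 175 FPKM, were also far higher in TACs. Krt15 was therefore still among the more abundant transcripts of the TAC library, whereas Shh and Lef1 were close to the lower end of the HFSC library. WT 52 and WT 57 had Krt15 at 62.5 and 118 FPKM, Cd34 at 4.32 and 6.17 FPKM and Shh at 19.6 and 19.8 FPKM. Bmpr1a itself differed little, at 31.8 and 46.0 FPKM (log2 difference -0.52), with 42.2 and 37.1 FPKM in WT 52 and WT 57.

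**Figure D1:**
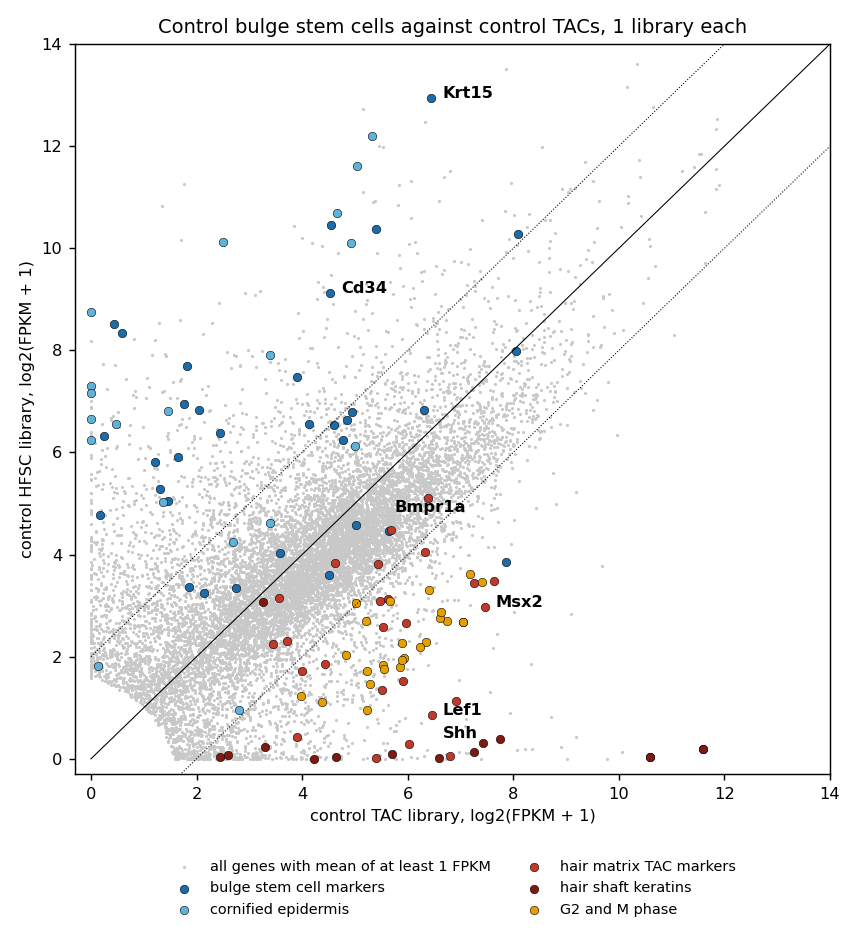
Each grey point is 1 of 12624 genes, placed by log2(FPKM + 1) in the control TAC library (horizontal) and the control HFSC library (vertical), with 5 gene lists in colour, the line of equal values and dotted lines at 4-fold. Bulge markers and genes of cornified epidermis lie mostly above the upper dotted line, and matrix markers, hair shaft keratins and genes of G2 and M phase mostly below the lower one.

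The libraries also differed in other cell types and in technical measures. The HFSC library held transcripts of cornified epidermis (summed 13188 and 195 FPKM over 19 genes), and the TAC library held transcripts of dermal and muscle cells. Of 12 fibroblast markers 6 were at least 4-fold higher in TACs (8.13% of all genes were) and 1 in HFSCs (8.89% of all genes were; summed 409 and 1054 FPKM), led by Dcn (0.342 and 579 FPKM). Of 11 skeletal muscle markers 10 were at least 4-fold higher in TACs (summed 5.10 and 199 FPKM), as were 3 of 4 endothelial markers (summed 0.206 and 18.5 FPKM). Of 9 adipocyte and erythroid markers only 2 passed the filter, only through the TAC library. Among them was Fabp4 (0.143 and 298 FPKM). All 9 summed to 0.622 and 303 FPKM, so the other members added little and Fabp4 alone does not show fat cells. Members admitted by the filter only through the TAC library were 5 of the 12 fibroblast, 10 of the 11 skeletal muscle and 4 of the 4 endothelial markers. Immune and Langerhans markers were mixed. Of 14, 2 were at least 4-fold higher in HFSCs and 4 in TACs, and 7 and 5 at 2-fold (median log2 difference 0.60). Of the 14, 3 passed the filter only through the HFSC library and 1 only through the TAC library. Of 7 melanocyte markers 4 were at least 4-fold higher in TACs, among them Gpnmb (2.61 and 322 FPKM), Kit (0.294 and 35.2 FPKM) and Dct (2.59 and 82.9 FPKM), and Mitf was higher in HFSCs (26.2 and 1.88 FPKM). Of these 7, 3 passed the filter only through the TAC library. The part of these cells in the differences below was not tested. Xist, expressed from the inactive X chromosome, stood at 68.9 and 68.2 FPKM, while the Y-linked Eif2s3y stood at 0.551 and 36.5 FPKM. Reading the steps of the lowest values, 1 read in the HFSC library was worth 0.515 times as much FPKM as 1 read in the TAC library, so the HFSC library was about 1.94 times as deep, which 212 of the 1921 genes with low values in both showed. The 10 most abundant entries took 14.6% of the summed FPKM in HFSCs and 6.62% in TACs.

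Genes with near-identical copies in the genome stood apart. Of 994 genes with such a copy 232 (23.3%) were at least 4-fold higher in HFSCs and 51 (5.13%) in TACs, against 805 and 920 of the 10910 genes found to have none. Ribosomal protein genes, many of which have processed pseudogenes, ranged from -3.57 to 6.54 in log2 difference, with 32 of 77 at least 4-fold higher in HFSCs. Genes that nearly all cells use were among them: Gapdh stood at 162 and 13.2 FPKM, Ppia at 1945 and 40.6 FPKM, and Rpl7 at 4085 and 42.9 FPKM. Values of such genes can depend on how reads that match several places were shared out, and the part of this in their differences was not tested. An exact 0 can likewise be a failed estimate. Among genes listed at 0 in a library and at 20 FPKM or more in the other, 42 in all, were Cdkn2d (117 FPKM in HFSCs) and Tsnax (47.0 FPKM in HFSCs), and no fold is given for them.

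The bulge programme was broad. Of 33 bulge markers above the filter, 19 were at least 4-fold higher in HFSCs and 1, Wif1, was higher in TACs (median log2 difference 3.58). The shares among all genes were 8.89% and 8.13%. Of the 33, 4 passed the filter on low values only through the HFSC library. Beyond the 2 markers already given, the largest differences were in secreted and structural genes. Krt24, a type I keratin, stood at 365 and 0.352 FPKM, Angptl7, a secreted angiopoietin-like protein, at 321 and 0.509 FPKM, and Ltbp2, which binds latent TGF-beta, at 79.6 and 0.187 FPKM. Postn, a matricellular protein, was at 1393 and 22.4 FPKM and Dkk3, a member of the dickkopf family, at 207 and 2.54 FPKM. Each of these 5 was also under 8 FPKM in WT 52 and WT 57.

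Transcription factor genes of the bulge differed by unequal amounts. Tbx1 (123 and 2.40 FPKM), Sox9 (59.4 and 2.15 FPKM), Nfatc1 (38.0 and 1.46 FPKM) and Foxc1 (32.0 and 1.76 FPKM) were each more than 10-fold higher in HFSCs. Lhx2, which is also active in early hair germs, stood at 177 and 13.9 FPKM, with 48.6 and 44.7 FPKM in WT 52 and WT 57. Tcf7l1 (8.47 and 3.42 FPKM) and Tcf7l2 (9.33 and 2.64 FPKM), DNA-binding partners of beta-catenin, were higher by less than 4-fold. Several genes named as bulge markers did not separate the libraries: Hopx stood at 253 and 264 FPKM, Foxp1 at 23.0 and 31.5 FPKM and Runx1 at 11.1 and 21.9 FPKM.

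Matrix markers gave the mirror image. Of 27 markers, 20 were at least 4-fold higher in TACs (8.13% of all genes were) and none in HFSCs (median log2 difference -3.30). Of the 27, 7 passed the filter on low values only through the TAC library. Besides Shh, Lef1 and Msx2, the list held the homeobox genes Msx1 (1.86 and 59.5 FPKM), Dlx3 (10.2 and 197 FPKM) and Hoxc13 (9.95 and 152 FPKM), a regulator of hair keratin genes. Foxn1, the gene mutated in nude mice, stood at 2.30 and 14.9 FPKM and Cux1 at 15.5 and 79.0 FPKM. Dlx3 and Hoxc13 were therefore not silent in the HFSC library, where they stood near 10 FPKM. WT 52 and WT 57 had Msx1 at 64.9 and 51.8 FPKM and Dlx3 at 194 and 180 FPKM, close to the Shh-CreER library.

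**Figure D2:**
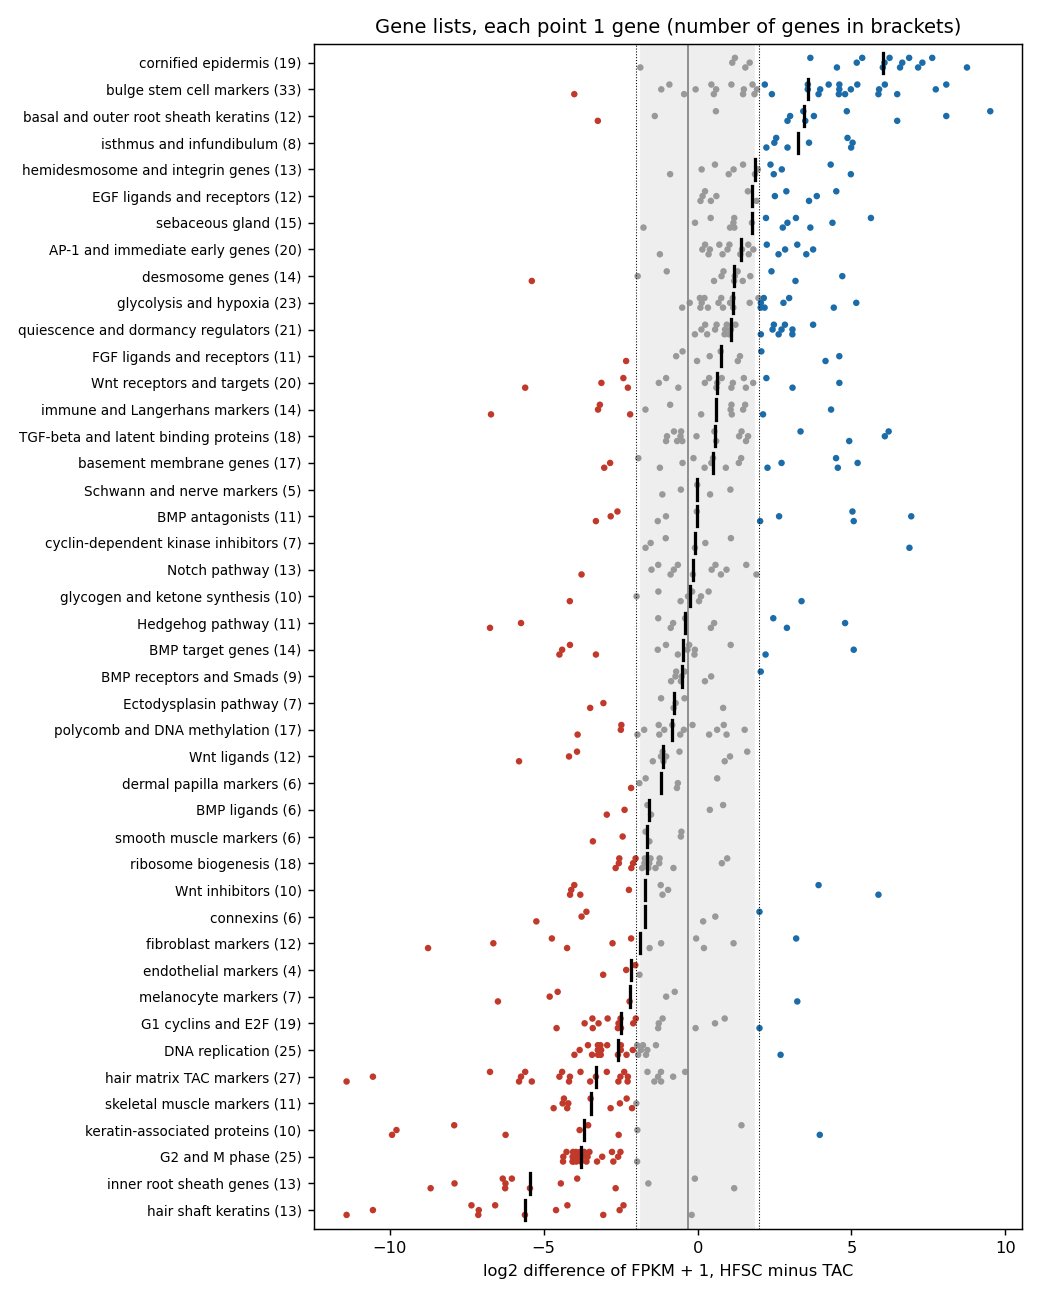
Each point is 1 gene of a list, placed by its log2 difference of FPKM + 1 (HFSC minus TAC), blue where at least 4-fold higher in HFSCs and red where at least 4-fold higher in TACs; black bars mark list medians, and the grey band spans the 10th to the 90th percentile of all genes (-1.82 to 1.83). Medians run from -5.61 in hair shaft keratins to 6.02 in cornified epidermis.

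Genes of the dividing cell were uniformly higher in TACs. Among the 25 G2 and M phase genes, 24 were 4-fold or more higher in TACs (8.13% of all genes were) and none in HFSCs (median log2 difference -3.79). The remaining gene, Ttk (7.29 and 31.4 FPKM), was past 2-fold. Ccna2, cyclin A2, stood at 5.42 and 132 FPKM, the survivin gene Birc5 at 5.44 and 131 FPKM, and Kif11, a motor of the mitotic spindle, at 2.48 and 57.1 FPKM. Mki67, the gene of the proliferation antigen Ki-67, stood at 5.80 and 97.2 FPKM. In WT 52 and WT 57 Ccna2 was at 78.1 and 94.7 FPKM and Mki67 at 54.7 and 83.6 FPKM. None of the 25 genes was listed at 0 in the HFSC library.

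DNA replication genes were also at least 4-fold higher in TACs in 17 of 25 (8.13% of all genes were), with 1 higher in HFSCs (median log2 difference -2.59). Of the 25, 2 passed the filter only through the TAC library. The helicase gene Mcm5 stood at 7.65 and 122 FPKM, Mcm10 at 0.364 and 20.8 FPKM, Gins1 at 2.93 and 45.4 FPKM and the nuclease gene Fen1 at 47.5 and 428 FPKM. The exception was Pcna (179 and 26.8 FPKM), the sliding clamp of DNA polymerase, which has a near-identical copy and stood at 90.1 and 135 FPKM in WT 52 and WT 57.

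Promoters of these lists held short words known as cell cycle motifs. Of 8863 genes with a RefSeq promoter entry (250 bases before to 50 after the start, both strands searched), 43.0% held CCAAT, the word bound by NF-Y, and 14.3% held TTTGAA, the core of the cell cycle homology region. Among the 21 genes of G2 and M phase with an entry, 18 held CCAAT and 16 held TTTGAA. The latter word was present in 25.6% of the genes at least 4-fold higher in TACs and 15.5% of those higher in HFSCs. Of 21 replication genes with an entry 9 held at least 1 of the E2F words TTTGGCGC, TTTCCCGC, TTTGCCGC and TTTCGCGC, against 4.72% of all genes. These are matches of letters and no binding was measured. The promoters of Kif11 and Mcm5 are printed from RefSeq (build GRCm38.p6) as examples, each 5′ to 3′ on the gene's strand. Capitals mark CCAAT and TTTGAA, both on the opposite strand, in Kif11 (chr19:37376132-37376431, plus strand), and E2F words, which overlap on opposite strands, in Mcm5 (chr8:75109259-75109558, plus strand).
Kif11: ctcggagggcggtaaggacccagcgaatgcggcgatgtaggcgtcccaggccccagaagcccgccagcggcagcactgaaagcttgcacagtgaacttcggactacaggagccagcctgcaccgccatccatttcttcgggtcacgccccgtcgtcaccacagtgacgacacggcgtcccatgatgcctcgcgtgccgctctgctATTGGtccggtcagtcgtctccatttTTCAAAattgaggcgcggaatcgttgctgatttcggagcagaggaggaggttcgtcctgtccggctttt
Mcm5: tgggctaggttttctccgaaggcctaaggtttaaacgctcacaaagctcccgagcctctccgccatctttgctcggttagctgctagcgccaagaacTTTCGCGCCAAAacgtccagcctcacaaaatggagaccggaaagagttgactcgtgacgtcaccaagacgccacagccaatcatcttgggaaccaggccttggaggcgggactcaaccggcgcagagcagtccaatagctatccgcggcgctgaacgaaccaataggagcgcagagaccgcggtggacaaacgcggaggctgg
Both genes were more than 10-fold higher in the TAC library than in the HFSC library.

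Most regulators of the G1 phase were higher in TACs. Of 19 genes of G1 cyclins and E2F factors 12 were at least 4-fold higher in TACs (8.13% of all genes were). In HFSCs 1 was (8.89% of all genes were), and the median log2 difference was -2.49. Of the 19, 3 passed the filter only through the TAC library. Mycn stood at 0.943 and 45.5 FPKM, Ccne1 (cyclin E1) at 1.48 and 25.5 FPKM, E2f2 at 2.84 and 39.7 FPKM and Ccnd2 (cyclin D2) at 25.8 and 161 FPKM. The D cyclins did not move together, since Ccnd3 was higher in HFSCs (51.8 and 12.1 FPKM) and Ccnd1 (23.3 and 52.5 FPKM) differed by less than 4-fold. Myc, unlike Mycn, stood at 97.9 and 52.7 FPKM.

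Cyclin-dependent kinase inhibitors, brakes of the cell cycle, were no higher in the stem cell library as a group: their median log2 difference was -0.09, and 0.14 when the libraries were scaled to the same median. Cdkn1a (p21) stood at 199 and 167 FPKM and Cdkn1b (p27) at 65.4 and 69.5 FPKM, so both were abundant in both libraries. Cdkn1c (p57) was higher in HFSCs by less than 4-fold, at 8.81 and 3.63 FPKM. Of the 7 inhibitors, 3 were at least 2-fold higher in TACs, none by 4-fold: Cdkn2c (8.82 and 27.3 FPKM), Cdkn2b (10.4 and 22.4 FPKM) and Cdkn2a (0.0392 and 2.36 FPKM). Cdkn2d was listed at 0 in the TAC library, and at 1.55 and 0.926 FPKM in WT 52 and WT 57.

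Genes tied to rest and to the circadian clock were at least 4-fold higher in HFSCs in 9 of 21 (8.89% of all genes were). None was 4-fold higher in TACs (8.13% of all genes were). The median log2 difference was 1.08, and 0.91 when scaled to the same sum. Of the 21, 2 passed the filter only through the HFSC library. The 9 included the clock output genes Dbp (42.5 and 4.13 FPKM), Tef (116 and 12.8 FPKM) and Hlf (10.3 and 0.704 FPKM), which code for related transcription factors, and the repressor gene Nr1d1 (68.8 and 11.5 FPKM). Foxo1 (10.03 and 9.11 FPKM), Foxo3 (15.4 and 9.68 FPKM) and Foxo4 (26.3 and 21.99 FPKM) differed by less than 2-fold. The time of day of collection is not given in the labels.

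Genes of ribosome assembly were higher in TACs in 15 of 18 at 2-fold (26.4% of all genes were) and 6 of 18 at 4-fold (median log2 difference -1.66). The nucleolar genes Nop58 (42.3 and 273 FPKM), Dkc1 (15.2 and 93.6 FPKM) and Nolc1 (21.99 and 101 FPKM) were among them. Of 17 genes of polycomb and DNA methylation 3 were at least 4-fold higher in TACs (8.13% of all genes were) and none in HFSCs (8.89% of all genes were). These 3 were the chromatin remodeller Hells (3.03 and 59.1 FPKM), Uhrf1 (5.76 and 37.1 FPKM, with a near-identical copy) and the histone methyltransferase Ezh2 (10.8 and 64.4 FPKM). Its paralog Ezh1 was higher in HFSCs, at 25.6 and 12.8 FPKM, by less than 2-fold on the FPKM + 1 scale.

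Keratin genes differed by large amounts in both directions. Of 13 hair shaft keratins above the filter 12 were at least 4-fold higher in TACs (median log2 difference -5.61), and the list summed to 8.59 and 5376 FPKM. These 12 passed the filter on low values only through the TAC library. Krt35, at 0.141 and 3092 FPKM, had the largest difference of any gene above the filter (log2 difference -11.40) and Krt85, at 0.0242 and 1533 FPKM, the next largest. WT 52 and WT 57 had Krt35 at 2519 and 2028 FPKM. The exception was Krt32, a cuticle keratin, at 7.41 and 8.61 FPKM. Krt33a, Krt33b, Krt34, Krt81, Krt83 and Krt86 each have a near-identical copy, and without them 6 of 7 shaft keratins were 4-fold higher in TACs.

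Inner root sheath genes were at least 4-fold higher in TACs in 10 of 13 (8.13% of all genes were, median log2 difference -5.45). Of the 13, 7 passed the filter only through the TAC library. The sheath keratins Krt73 (0.178 and 480 FPKM), Krt28 (0.771 and 421 FPKM), Krt27 (0.717 and 137 FPKM), Krt25 (6.18 and 546 FPKM) and Krt71 (1.48 and 186 FPKM) were higher, as was Tchh (3.52 and 196 FPKM), the gene of trichohyalin. Krt71 stood at 1632 and 1711 FPKM in WT 52 and WT 57, above the Shh-CreER library. Gata3, a regulator of the sheath lineage, did not separate the libraries, at 48.5 and 51.6 FPKM.

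Keratin-associated proteins, which crosslink shaft keratins, were at least 4-fold higher in TACs in 7 of 10 (8.13% of all genes were), with 21 of the 31 measured below the filter. All 7 passed the filter only through the TAC library. Krtap8-1 stood at 0.0955 and 1065 FPKM and Krtap11-1 at 0.124 and 269 FPKM, and Krtap7-1 was listed at 0 in HFSCs and at 880 FPKM in TACs. The 1 member higher in HFSCs, Krtap3-2 (22.1 and 0.474 FPKM), has a near-identical copy.

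Keratins of the basal layer and outer root sheath went the other way, with 9 of 12 at least 4-fold higher in HFSCs and 1, the companion layer keratin Krt75 (10.9 and 111 FPKM), in TACs (median log2 difference 3.47). Krt5, the type II keratin of basal cells, stood at 9195 and 1143 FPKM and its partner Krt14 at 4045 and 373 FPKM. Krt77, which was counted in this list, had the largest difference towards HFSCs of any gene above the filter, at 2463 and 2.38 FPKM (log2 difference 9.51). Krt1 (1092 and 29.3 FPKM), a gene of the cornified epidermis list, was also higher in HFSCs. Which cell layer the Krt77 transcripts came from was not tested, so its value cannot be read as a basal or outer root sheath trait. Krt17 was abundant in both libraries, at 1119 and 740 FPKM. Krt5, Krt6a, Krt6b and Krt16 have near-identical copies.

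Keratin genes lie in 2 clusters, type I on chromosome 11 and type II on chromosome 15, and genes mostly formed runs that went the same way, with sharp changes between some neighbours. In the order of the RefSeq annotation, Krt24 (higher in HFSCs) was followed by Krt25, Krt26, Krt27 and Krt28 (all higher in TACs), then by Krt10 (4693 and 39.0 FPKM). The block from Krt33a to Krt36 was 4-fold higher in TACs in each gene above the filter other than Krt32, and the next gene above the filter was Krt15. On chromosome 15 Krt5 (9195 and 1143 FPKM) stood next to Krt71. In all, 5 of 21 genes on chromosome 11 were at least 4-fold higher in HFSCs and 10 in TACs, and on chromosome 15 there were 8 of 20 in each direction.

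**Figure D3:**
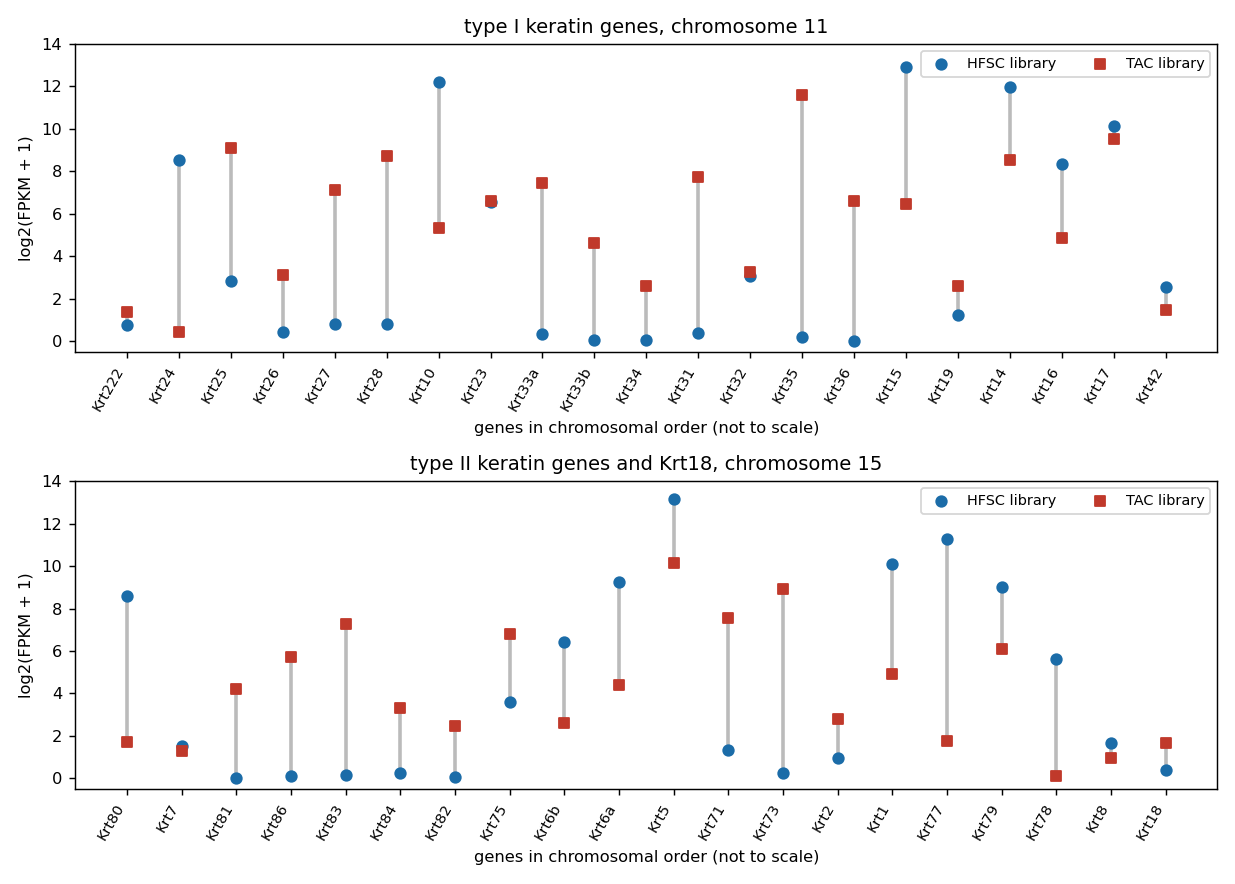
Keratin genes that average at least 1 FPKM are shown in their order along chromosome 11 (upper) and chromosome 15 (lower), with log2(FPKM + 1) in the HFSC library (blue circles) and in the TAC library (red squares). A run of TAC-high genes from Krt25 to Krt28 lies between the HFSC-high Krt24 and Krt10, another lies between Krt33a and Krt36 (with Krt32 level), and there is another from Krt81 to Krt82 on chromosome 15.

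Promoters of 2 type I keratins that went opposite ways are printed from RefSeq (build GRCm38.p6), 5′ to 3′ on the gene's strand. TATAAA, the letters of the TATA box, was found on either strand in 5 of 7 shaft keratins and 7 of 12 inner root sheath genes with an entry, against 9.21% of all genes, 15.9% of the 4-fold HFSC-high genes and 15.4% of the 4-fold TAC-high genes. The word TTTGAA was found in 6 of these 7 shaft keratins. Capitals mark TATAAA in Krt31 (chr11:100050502-100050801, minus strand) and CCAAT, on either strand, in Krt24 (chr11:99285213-99285512, minus strand). Krt24 does not hold the exact word TATAAA, but it holds the similar letters TATATAAG, so it cannot be said to lack a TATA box.
Krt31: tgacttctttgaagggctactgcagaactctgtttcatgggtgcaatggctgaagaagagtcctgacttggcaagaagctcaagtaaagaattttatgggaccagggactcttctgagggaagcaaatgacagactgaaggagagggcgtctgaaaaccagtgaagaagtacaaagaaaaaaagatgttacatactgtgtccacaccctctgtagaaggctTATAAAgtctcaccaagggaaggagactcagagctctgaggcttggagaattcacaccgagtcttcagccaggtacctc
Krt24: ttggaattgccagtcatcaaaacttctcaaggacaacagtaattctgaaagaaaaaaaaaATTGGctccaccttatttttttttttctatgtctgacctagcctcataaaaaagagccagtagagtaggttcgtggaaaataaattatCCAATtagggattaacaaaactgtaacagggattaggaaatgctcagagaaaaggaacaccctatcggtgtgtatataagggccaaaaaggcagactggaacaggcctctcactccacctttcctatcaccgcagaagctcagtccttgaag
Krt31 stood at 0.314 FPKM in HFSCs and 213 FPKM in TACs, and Krt24 at 365 and 0.352 FPKM.

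Genes that anchor basal cells were higher in HFSCs. Of 13 genes of hemidesmosomes and integrins 5 were at least 4-fold higher in HFSCs, 10 at least 2-fold (18.2% of all genes were), and none 2-fold higher in TACs (median log2 difference 1.86). Col17a1, the transmembrane collagen of the hemidesmosome, stood at 1322 and 40.9 FPKM, the linker gene Dst at 53.3 and 1.71 FPKM and the integrin gene Itgb4 at 129 and 18.4 FPKM. Itgb1, which pairs with many alpha chains, differed little, at 96.0 and 87.5 FPKM.

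In the basement membrane list 5 of 17 were at least 4-fold higher in HFSCs (8.89% of all genes were) and 2 in TACs (8.13% of all genes were). Of the 17, 1 passed the filter only through the HFSC library and 2 only through the TAC library. The laminin chain genes Lamb3 (239 and 5.53 FPKM) and Lama3 (31.2 and 5.67 FPKM) were higher in HFSCs, with Col7a1, the anchoring fibril collagen, at 50.6 and 1.28 FPKM. Egfl6, a matrix protein of the bulge, was at 35.7 and 0.561 FPKM. Nid1 (0.0795 and 7.83 FPKM) and Lamb1 (3.34 and 30.1 FPKM) were higher in TACs, where the fibroblast markers given above were higher too.

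Cell junctions differed by family member. Of 14 desmosome genes 3 were at least 4-fold higher in HFSCs (8.89% of all genes were). They were Dsg3 (122 and 22.3 FPKM) and the paralogs Dsg1a and Dsg1b, which are near-identical copies. Only Dsg4, the desmoglein of the hair shaft, was 4-fold higher in TACs (0.0103 and 41.2 FPKM), near the share of all genes (8.13%). The connexin genes Gja1 (80.3 and 993 FPKM), Gjb2 (4.46 and 205 FPKM) and Gjb6 (1.25 and 29.6 FPKM), were higher in TACs, with Gjb2 at 444 FPKM in both WT 52 and WT 57. Gjb5 was higher in HFSCs, at 64.3 and 15.2 FPKM.

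The BMP pathway differed in several antagonists, and also in some ligands and target genes given below. Of 11 antagonists and inhibitors 5 were at least 4-fold higher in HFSCs (8.89% of all genes were) and 3 in TACs (8.13% of all genes were). The list median (-0.02) therefore describes neither set, and it was positive under the other scalings tried. Of the 11, 2 passed the filter only through the HFSC library and 1 only through the TAC library. Grem1, which binds BMP2 and BMP4, stood at 151 and 0.235 FPKM and Nog, the gene of noggin, at 38.2 and 0.164 FPKM. Nbl1 (258 and 6.90 FPKM), Sostdc1 (125 and 19.0 FPKM) and Fst (167 and 39.999 FPKM), the gene of the activin antagonist follistatin, were higher in HFSCs as well. In WT 52 and WT 57 Grem1 was listed at 0 and at 0.0235 FPKM and Nog was at 0.121 and 0.0539 FPKM. Higher in TACs were the pseudoreceptor gene Bambi (5.35 and 61.6 FPKM), Bmper (0.359 and 8.61 FPKM) and Fstl1 (7.95 and 53.4 FPKM).

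Of 6 BMP ligands 2 were at least 4-fold higher in TACs (8.13% of all genes were) and none in HFSCs (8.89% of all genes were). Bmp4 stood at 5.01 and 45.4 FPKM and Bmp8a was listed at 0 in HFSCs and at 4.18 FPKM in TACs. Bmp2 was at 13.02 and 42.3 FPKM, but at 2.84 and 2.98 FPKM in WT 52 and WT 57, and Bmp7 was at 24.6 and 72.0 FPKM.

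Receptors and Smads differed little. Of 9, only Smad9, a signal transducer of BMP receptors, was 4-fold apart (6.61 and 0.833 FPKM), and no other reached 2-fold. Smad9 passed the filter only through the HFSC library, and 8.89% of all genes were at least 4-fold higher in HFSCs. Target genes did not move as a block. Id1 (297 and 358 FPKM), Id2 (247 and 265 FPKM) and Id3 (447 and 562 FPKM), immediate targets of BMP signalling, were abundant in both libraries and within 1.5-fold of each other. Of 14 targets 4 were at least 4-fold higher in TACs, Msx1, Msx2, Dlx3 and Bambi, and 2 in HFSCs, Nog and Id4 (41.9 and 8.28 FPKM). The shares among all genes were 8.13% and 8.89%. Of the 14, 2 passed the filter only through the HFSC library.

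Wnt pathway genes showed a change of members between the libraries. Of 12 ligands and secretion genes 3 were at least 4-fold higher in TACs (8.13% of all genes were). They were Wnt10b (1.18 and 120 FPKM), Wnt5a (1.53 and 44.8 FPKM) and Wnt6 (2.10 and 45.8 FPKM). None was 4-fold higher in HFSCs (8.89% of all genes were). There Wnt4 (38.4 and 85.5 FPKM), Wnt7b (25.5 and 7.67 FPKM) and Wnt3 (24.6 and 37.4 FPKM) were the most abundant ligands. Among secreted and membrane inhibitors Dkk3 and Sfrp1 (82.0 and 4.44 FPKM) were higher in HFSCs. Wif1 (13.5 and 232 FPKM), Kremen2 (4.28 and 73.1 FPKM), Notum (0.988 and 33.2 FPKM), Apcdd1 (30.9 and 149 FPKM) and Dkk4 (listed at 0 and at 16.7 FPKM) were higher in TACs. Levels in the K15-CrePGR libraries were lower for some of these, with Wif1 at 25.3 and 29.5 FPKM and Dkk4 at 0.352 and 0.365 FPKM.

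The nuclear partners of beta-catenin also differed by member. Lef1 and Tcf7 (5.49 and 30.2 FPKM) were higher in TACs and, as given above, Tcf7l1 and Tcf7l2 were higher in HFSCs by less than 4-fold. Receptor genes of the R-spondin family, Lgr5 (55.2 and 1.31 FPKM) and Lgr6 (22.2 and 3.92 FPKM), were higher in HFSCs, while Lgr4 (46.0 and 35.2 FPKM) differed by less than 2-fold. Frizzled receptor genes also divided, with Fzd2 (82.4 and 8.83 FPKM) higher in HFSCs and Fzd10 (9.35 and 89.2 FPKM) in TACs. Axin2, a feedback target of Wnt signalling, stood at 16.4 and 40.7 FPKM, less than 4-fold apart.

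Hedgehog co-receptors were high where the ligand was low. Gas1 (113 and 3.13 FPKM), Cdon (20.1 and 1.82 FPKM) and Boc (63.5 and 10.7 FPKM), which code for cell surface proteins that bind the ligand, were at least 4-fold higher in HFSCs. Shh was at least 4-fold higher in TACs. The target genes Gli1 (13.3 and 23.7 FPKM) and Ptch1 (7.88 and 10.7 FPKM) differed by less than 2-fold, as did the transducer Smo (45.4 and 33.4 FPKM).

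**Figure D4:**
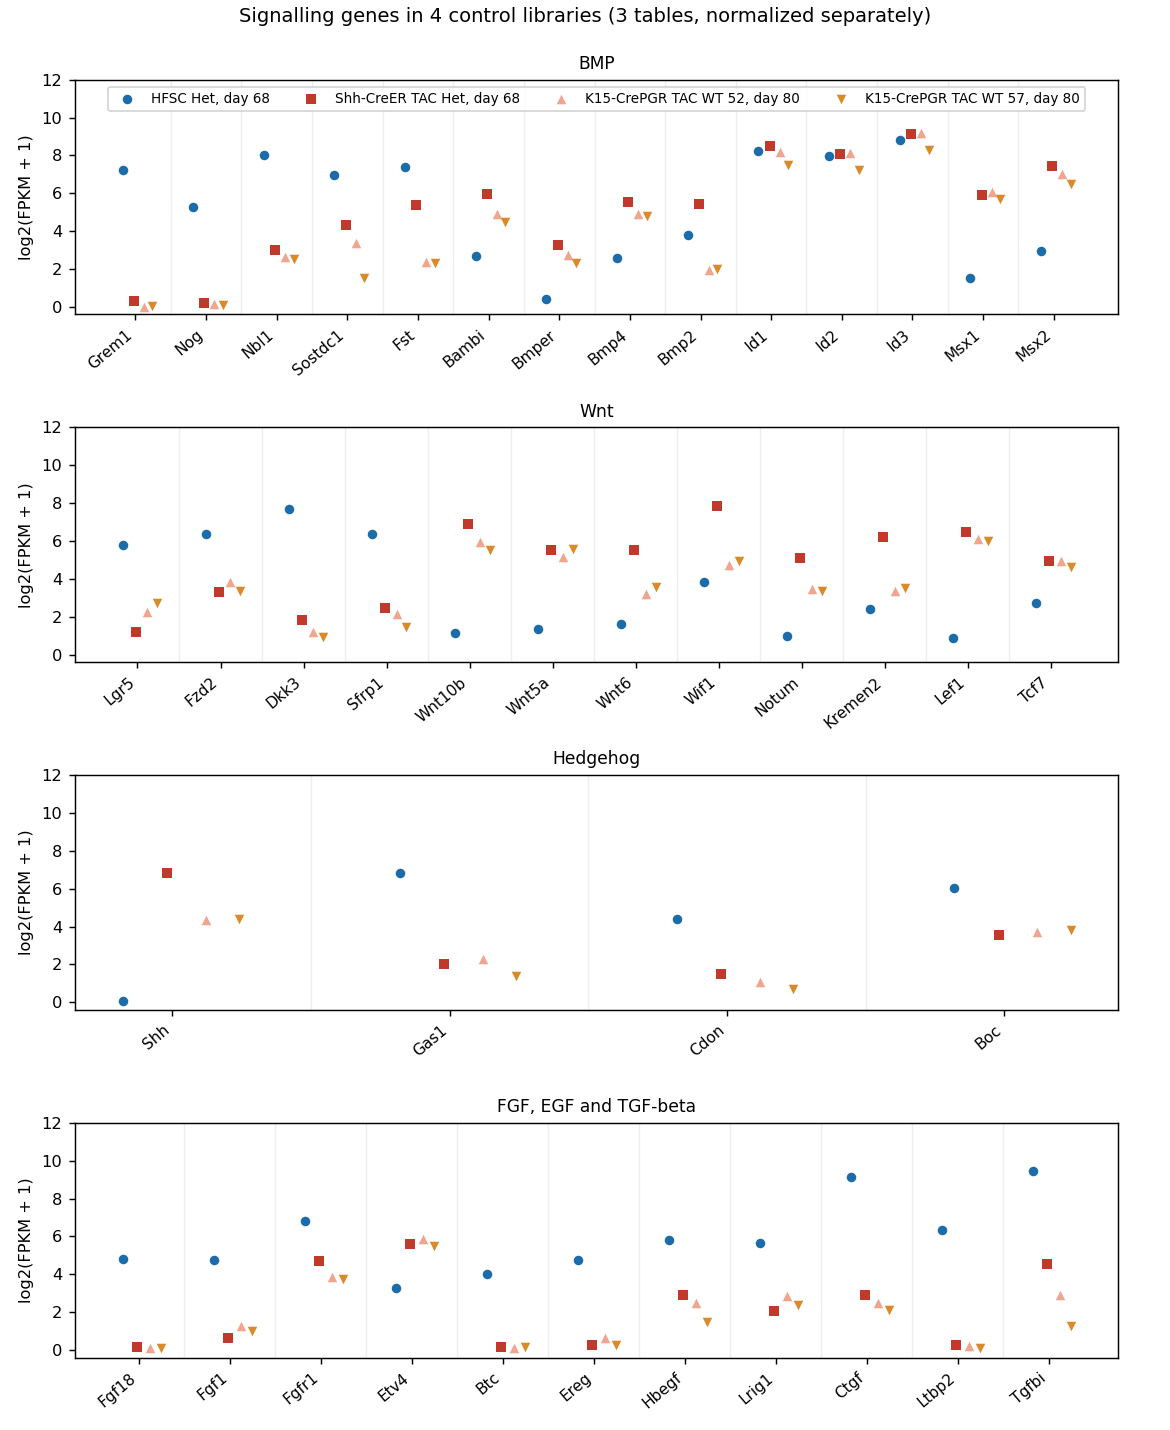
log2(FPKM + 1) of signalling genes is shown in the HFSC library (blue circles), the Shh-CreER TAC library (red squares), WT 52 (upward triangles) and WT 57 (downward triangles), which come from 3 tables normalized separately. Grem1, Nog, Fgf18, Btc and Ltbp2 are above 15 FPKM in HFSCs and below 1 FPKM in all 3 TAC libraries, while Id1, Id2 and Id3 lie between 148 and 573 FPKM in all 4.

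Several growth factor genes of the FGF and EGF families were higher in HFSCs, while other FGF ligands were higher in TACs. Of the FGF ligands measured, 3 passed the filter, each only through the HFSC library. The 6 below it were low in both libraries and higher in TACs, such as Fgf2 at 0.0264 and 1.28 FPKM. In WT 52 and WT 57 Fgf2 stood at 7.37 and 7.35 FPKM and Fgf5, also below the filter, at 5.41 and 7.41 FPKM. Of the ligands above the filter, Fgf18 stood at 26.5 and 0.13 FPKM, Fgf1 at 26.2 and 0.526 FPKM and the receptor gene Fgfr1 at 110 and 25.4 FPKM, whereas Etv4, a target of FGF signalling, was higher in TACs (8.55 and 46.8 FPKM). Of 12 EGF family ligands, receptors and regulators 5 were at least 4-fold higher in HFSCs (8.89% of all genes were). None was 4-fold higher in TACs (8.13% of all genes were), and the median log2 difference was 1.77. Of the 12, 2 passed the filter only through the HFSC library. Ligand genes led, with Ereg at 26.3 and 0.202 FPKM, Btc at 15.2 and 0.109 FPKM, Hbegf at 54.3 and 6.49 FPKM and Epgn at 27.3 and 3.96 FPKM. The fifth was Lrig1 (49.8 and 3.13 FPKM), a negative regulator of these receptors, while the receptor Egfr stood at 48.5 and 43.3 FPKM.

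In the TGF-beta list 4 of 18 were at least 4-fold higher in HFSCs (8.89% of all genes were) and none in TACs (8.13% of all genes were). Ctgf (559 and 6.58 FPKM), Cyr61 (612 and 59.3 FPKM), Tgfbi (706 and 22.3 FPKM) and Ltbp2 were secreted or matrix proteins. Ligand Tgfb2 (1.65 and 1.71 FPKM) and receptor Tgfbr1 (10.8 and 17.6 FPKM) differed by less than 2-fold. In the ectodysplasin pathway the receptor gene Edar (0.341 and 14.1 FPKM) and the related Tnfrsf19 (24.0 and 207 FPKM) were higher in TACs. Of 13 Notch pathway genes only Heyl (0.0079 and 12.8 FPKM) was 4-fold apart, near the share of all genes higher in TACs (8.13%). Notch1 stood at 24.0 and 69.6 FPKM and Hes1 at 89.0 and 164 FPKM.

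Transcripts of the upper follicle and epidermis were prominent in the HFSC library. Of 19 genes of cornified epidermis 14 were at least 4-fold higher in HFSCs and none in TACs (median log2 difference 6.02), and 7 of the 19 passed the filter only through the HFSC library. Lor, the gene of loricrin, stood at 1119 and 4.68 FPKM, Krt10 at 4693 and 39.0 FPKM and Krtdap at 3143 and 31.9 FPKM, and Lce1m was at 430.4 FPKM and listed at 0 in TACs. All 8 isthmus and infundibulum genes were at least 4-fold higher in HFSCs, among them Klk7 (199 and 5.31 FPKM), Defb6 (644 and 18.7 FPKM) and Krt79 (522 and 68.1 FPKM). Sebaceous gland genes were at least 4-fold higher in HFSCs in 7 of 15 (8.89% of all genes were). Elovl4 stood at 219 and 16.4 FPKM and Awat1 at 16.1 and 1.26 FPKM, while Pparg was at 2.29 and 1.45 FPKM. Krt10, a keratin of differentiating epidermis, and Krt15 (7834 FPKM) were thus both highly abundant in the same HFSC library. Cd207, a marker of epidermal Langerhans cells, was at 19.2 FPKM and listed at 0 in TACs, and Lyz2, a macrophage marker with a near-identical copy, at 0.346 and 140 FPKM.

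Immediate early genes respond within minutes to stimuli that include tissue dissociation. Of 20, 6 were at least 4-fold higher in HFSCs (8.89% of all genes were, median log2 difference 1.42). Fosb (748 and 78.3 FPKM), Dusp1 (724 and 99.9 FPKM), Atf3 (1605 and 258 FPKM), Fos (2291 and 481 FPKM), Klf4 (504 and 36.4 FPKM) and Fosl1 (54.2 and 3.77 FPKM) were those 6. Jun (854 and 721 FPKM) and Ier2 (458 and 347 FPKM) were abundant in both libraries. In WT 52 and WT 57 Fosb was lower still, at 24.9 and 5.77 FPKM. TGACTCA, the word bound by AP-1, was found in 8.996% of the promoters of 4-fold HFSC-high genes against 4.80% of all, and in 5 of 17 cornified epidermis genes with an entry.

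Metabolic genes differed in a few steps. The median log2 difference of 23 genes of glycolysis and hypoxia was 1.15, and 0.87 when scaled to the same sum. None was 4-fold higher in TACs, and 8 were at least 4-fold higher in HFSCs (8.89% of all genes were). Of the 17 without a near-identical copy 5 were, the hexokinase gene Hk1 (39.9 and 4.19 FPKM), Pfkp (55.3 and 7.14 FPKM), Aldoa (432 and 94.7 FPKM), the glucose transporter gene Slc2a1 (60.7 and 13.9 FPKM) and Ndrg1 (115 and 27.0 FPKM). Hif1a (38.3 and 17.9 FPKM) and Vegfa (6.07 and 7.44 FPKM) differed by less than 4-fold. In ketone metabolism Bdh1 was higher in TACs (3.23 and 74.2 FPKM), with 124 and 139 FPKM in WT 52 and WT 57.

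Beyond the lists, the largest differences towards TACs among genes without a near-identical copy included the chemokine gene Ccl8 (0.145 and 327 FPKM), the complement genes C1qb (0.0855 and 136 FPKM) and C1qc (0.0344 and 111 FPKM), known from macrophages, the claudin gene Cldn10 (0.867 and 244 FPKM) and the cadherin gene Cdh6 (0.00682 and 96.1 FPKM). C1qb was lower in WT 52 and WT 57, at 18.3 and 3.98 FPKM, while Cldn10 stood at 45.3 and 85.4 FPKM and Cdh6 at 27.3 and 32.9 FPKM. Towards HFSCs they included the cytokine receptor gene Il31ra (208 and 0.379 FPKM), the transglutaminase gene Tgm5 (294 and 1.31 FPKM), Krt80 (387 and 2.23 FPKM), the peptide hormone gene Cck (93.7 and 0.156 FPKM) and the collagen gene Col8a2 (104 and 0.337 FPKM). Each of these 5 was under 3 FPKM in WT 52 and WT 57.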

How the data were processed

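Gene expression of hair follicle cells was measured by RNA sequencing. Reads were handled with TopHat and Cufflinks on mouse build mm9, per the submitters' processing notes, in versions not given in the sources used here. Values were deposited by the authors as FPKM, 1 column per library, and each column was matched to its sample by name. Depth in reads is unknown, and FPKM are not counts, so no count model was fitted.

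The HFSC and Shh-CreER tables hold the same 22958 entries. Entries were joined on symbol (22431 symbols), the row of highest mean was kept for each of 267 repeated symbols, and genes averaging at least 1 FPKM were kept. A gene can pass this filter through 1 library alone, so list counts can rest partly on members admitted by the library where they are high. Differences are of log2 values with a pseudocount of 1 FPKM, and percentiles are ranks among kept genes of a library. Genes with a near-identical copy were found by aligning GENCODE vM21 transcripts to each other with minimap2 2.31 (at least 95% identity over at least 300 bases to a gene elsewhere), and 11904 kept genes were matched. Symbols were matched to RefSeq for 12504. The procedure was tested on simulated data. Python 3.11.15, numpy 2.4.6, pandas 2.3.3 and matplotlib 3.10.9 were used.

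The genes, the 45 lists and the comparison were chosen with earlier results of these data known. After the files were seen, the list entries Tcf3 and Tcf4 were replaced by Tcf7l1 and Tcf7l2, and 2 older symbols by those the tables use. The rule named the 5 markers, Bmpr1a, in each list at most 5 members, by size of difference (mean of at least 5 FPKM), the 20 largest differences each way (mean of at least 10 FPKM), and the 10 highest levels per library. Other list members were named after their values were seen. The alternatives tried were other pseudocounts, filters and scalings, ranks, summed rows, leaving out genes listed at 0, and the K15-CrePGR WT libraries in place of the Shh-CreER control. Leaving out genes with copies was added after the data were seen. Some genes that the rule takes are left out of the text.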

Additional observations from a re-analysis of the deposited data

How the results depend on the processing

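Counts of 4-fold genes moved with the choices that set their scale. With a pseudocount of 5 FPKM they fell to 599 (higher in HFSCs) and 434 (higher in TACs), and by a rank difference of at least 50 percentile points they were 462 and 287. With both libraries scaled to the same sum, 1578 genes were higher in TACs and 1114 in HFSCs. The other settings tried, among them quantile normalization (1214 and 889) and leaving out genes with a near-identical copy (890 and 975), kept both counts within 1.5 times those reported. Over 44 list medians and all settings, 475 values kept their direction and side of 2-fold, 21 passed it, 26 fell short and 1 reversed: the median of BMP ligands was 0.17 with WT 57 as the TAC library. The medians of BMP antagonists, FGF genes, Notch genes, cyclin-dependent kinase inhibitors, Schwann markers and glycogen and ketone genes, all under 2-fold, changed sign under at least 1 scaling. Of 46 named genes, Ftl1, which has near-identical copies, reversed with WT 52 (-0.61) and WT 57 (-1.38) as the TAC library. The cause was not tested. No paired analysis was possible because the comparison has 1 library on each side and no test, and leaving out a replicate was not possible for the same reason. Depth in reads limits genes below about 0.3 FPKM, where single reads set the values.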

Other observations

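Grouping genes without a near-identical copy by the stem of their symbol, chosen after the values were seen, gave 104 families of at least 10 kept genes and showed some that the lists do not cover. Values give the HFSC library first and the TAC library second. Among all genes without such a copy, 15.7% were at least 2-fold higher in HFSCs and 27.7% in TACs. At 4-fold the shares were 7.38% and 8.43%. Of 26 cytochrome P450 genes (Cyp), enzymes that oxidise lipids, retinoids and foreign compounds, 14 were at least 4-fold higher in HFSCs and none in TACs (median log2 difference 2.14). They included Cyp2b10 (40.9 and 0.166 FPKM), Cyp2s1 (39.4 and 2.55 FPKM), Cyp2j6 (22.5 and 0.699 FPKM) and Cyp26b1 (26.0 and 1.56 FPKM), which breaks down retinoic acid. Of 16 Serpinb genes, mostly intracellular protease inhibitors, 7 were at least 4-fold higher in HFSCs and 1 in TACs, with Serpinb2 at 206 and 6.11 FPKM, Serpinb7 at 71.6 and 0.0555 FPKM and Serpinb13 at 0.606 and 7.97 FPKM. Of 14 semaphorin genes, 3 were at least 4-fold higher in HFSCs and 1 in TACs (4 and 5 at 2-fold). Sema3c (63.7 and 5.24 FPKM), Sema3d (19.9 and 0.41 FPKM) and Sema3e (44.4 and 0.621 FPKM), which code for secreted guidance cues, were higher in HFSCs, while the membrane-bound Sema4c (4.11 and 35.4 FPKM) was higher in TACs, as was the secreted Sema3b by less than 4-fold (0.445 and 3.45 FPKM). Of 12 Klf transcription factor genes 7 were at least 2-fold higher in HFSCs and none in TACs, with Klf3 at 74.0 and 9.75 FPKM and Klf9 at 47.3 and 6.78 FPKM.

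Other families were shifted towards TACs by smaller amounts across nearly all members. Of 39 genes of the large mitochondrial ribosomal subunit (Mrpl), 32 were at least 2-fold higher in TACs and none in HFSCs (median log2 difference -1.42). The same held for 14 of 17 nucleoporin genes (Nup, median -1.65), among them Nup210 (0.384 and 26.9 FPKM), and for 8 of 10 genes of the RNA exosome (Exosc, median -1.87), among them Exosc8 (20.2 and 114 FPKM). Of 12 chemokine genes (Ccl), 10 were at least 4-fold higher in TACs, with Ccl6 at 1.96 and 55.4 FPKM and Ccl7 at 1.35 and 24.3 FPKM. Ccl20 was higher in HFSCs (6.94 and 1.06 FPKM). So was Ccl27a, by far more (1152 and 2.25 FPKM), which has near-identical copies and so is not among the 12. The macrophage transcripts C1qb and C1qc and the fibroblast transcript Dcn were also higher in the TAC library, as given in the report, and their part in the chemokine values was not tested.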
